A study of Mus musculus with 4 samples.

Results

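DNA methylation was examined at 9 genes: Irx1, Irx2, Pou3f4, Neurog3, Sox9, Hhex, Pax4, Gata6 and Npy. They mark alpha cells, other non-beta islet cells, immature beta cells or the endocrine progenitors from which all islet cells arise. For each gene, the methylated regions that touched its body or the 10 kb on either side were taken from MeDIP-seq of pancreatic islets, which gave 19 of the 186169 regions of the whole data set. The genes were chosen by name for their known roles, with earlier results of these data known. The 4 libraries came from islets of mice labelled as C57BL/6 at 8 weeks of age, isolated with collagenase and picked by hand. WT mice carried the floxed Raptor allele (Raptor lox/lox) without Cre. βRapKO mice carried Raptor lox/lox together with RipCre, in which the rat insulin promoter drives Cre, so that Raptor, an essential component of mTORC1, is deleted in beta cells while alpha, delta and the remaining islet cells keep it. According to the methods, the RipCre line was of a mixed background and the floxed line was C57BL/6J, so the genotypes may also differ in strain. There were 2 libraries per genotype, and no group with Cre alone was analysed here. Nothing in the sources used here says whether the 2 libraries came from separate animals or pools, so p-values measure only the spread between these samples. Whole islets were used, and fewer cells of a type and less methylation per cell therefore cannot be told apart.

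MeDIP-seq pulls down fragments of genomic DNA with an antibody that binds methylated cytosine, and the sequenced tags pile up into peaks where many methylated CpG sites lie close together. Alpha cell and progenitor genes are of interest in this setting because mature beta cells express most of them little or not at all, and DNA methylation is one of several ways in which a cell holds a gene silent. Polycomb proteins are another, and the CpG islands at the starts of developmental transcription factor genes are commonly free of methylation whether or not the gene is active. The libraries hold DNA and no RNA, so neither the cell types of the islets nor the activity of these genes could be checked in them. A peak list also does not show the excision of the floxed exon, and the genotype labels were not checked at the targeted gene.

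The libraries kept between 25585533 and 31330751 tags after removal of duplicates, and between 29.2% and 35.4% of these lay in peaks. WT replicate 2 was the deepest and had the most peaks, 151093 against 117638 to 121186 in the other libraries. A peak is listed only above the threshold of the peak caller, and the weakest peak of any library held between 23 and 25 tags. A region without a peak in a library thus has no count there, and its methylation may be low or merely too sparse to be called. Where a peak was called, a region's tags are those inside that library's own peaks. Tags in the rest of the region were not counted. For the 9 genes, WT libraries listed 12 and 15 peaks and βRapKO libraries 11 and 10, in the order of their replicate numbers, which is kept below. Per 10000 peaks of the library this came to 0.99 and 0.993 in WT and 0.935 and 0.836 in βRapKO.

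Peaks at these genes lay in the flanks, in introns and over last exons, and none covered a gene start. Of the 19 regions, 6 touched a gene body (3 in introns and 3 over last exons, of which Sox9 was in the UTR alone), 6 lay upstream and 7 downstream. Irx1 and Irx2 had no region at all, Pou3f4, Neurog3 and Pax4 had 1 each, Npy had 2, Sox9 and Hhex had 4 each and Gata6 had 6. Of all protein-coding genes, 9.5% had no region in the same window. The CpG density of the 19 regions had a median of 1.69 sites per 100 bp, beside 1.6 for all regions, and ran from 0.756 at Hhex to 3.59 at Gata6.

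**Figure D1:**
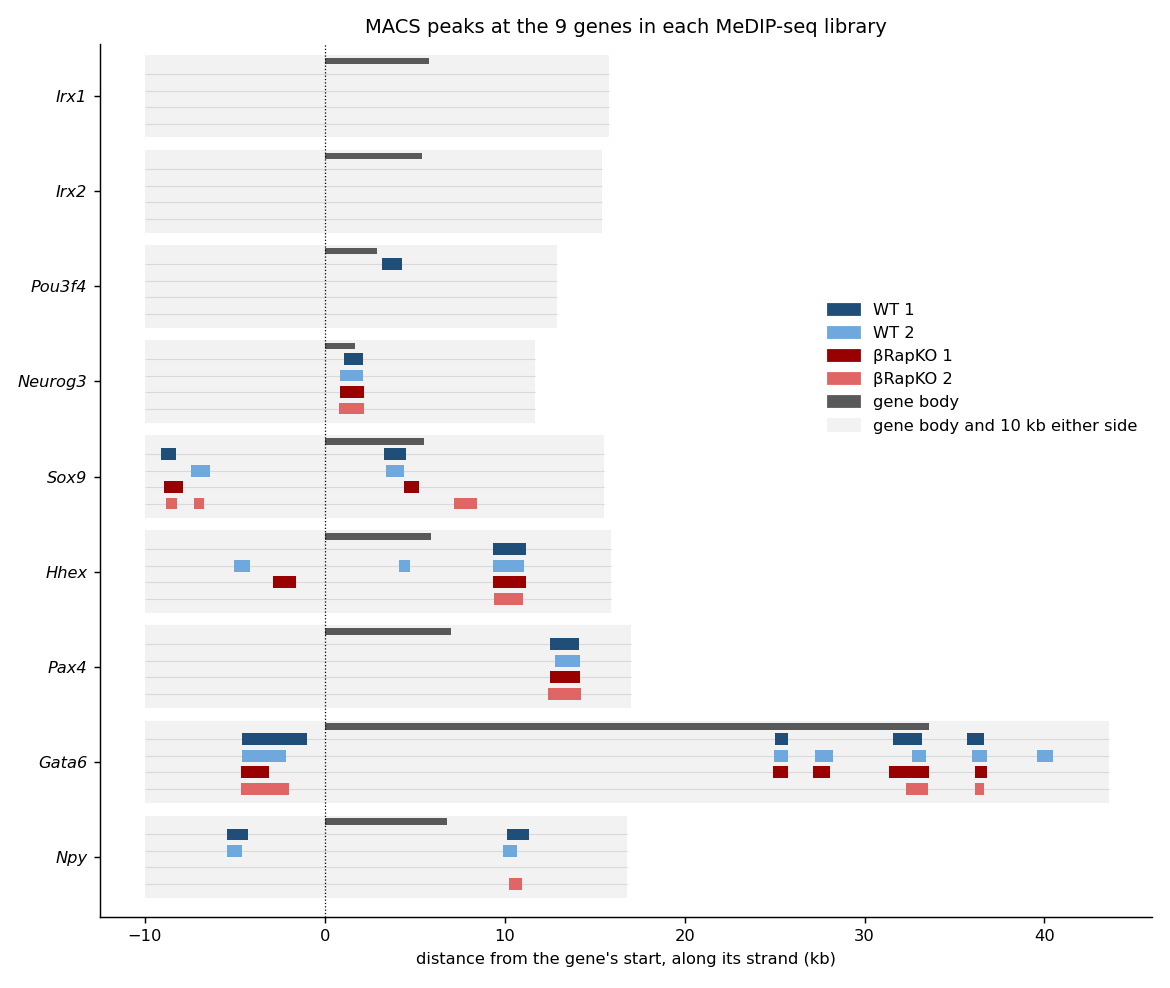
Peaks of each library (coloured bars, 1 line per library) at the 9 genes, by distance from the gene's start along its strand in kb. Grey bars mark the gene bodies and the pale band the gene body with 10 kb on either side. Irx1 and Irx2 have no peak in any library, no peak of any gene covers its start, and the peaks of Neurog3, Pax4 and the downstream flank of Hhex line up in all 4 libraries.

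Many of the 19 regions were seen in some libraries and not in others. All 4 libraries had a peak at 6 of them (31.6%), and at 40.3% of all regions. These 6 regions belonged to Gata6 (3 regions), Neurog3, Hhex and Pax4. A further 4 regions were called in 3 libraries, 3 regions in 2 libraries and 6 regions in 1 library alone. Of the regions seen in 1 library, 3 came from WT replicate 2, the deepest library, and 1 from each of the other libraries. The part of depth in these calls was not tested. Only 1 region, upstream of Npy, was called in both WT libraries and in neither βRapKO library, a pattern found at 4.16% of all regions. The opposite pattern, a peak in both βRapKO libraries alone, occurred at 0 of the 19 regions and at 1.58% of all regions. Over all regions, the WT pattern numbered 7747 and the opposite pattern 2947. With the same number of top-ranked peaks taken from each library, they numbered 4612 and 4967, so their order depended on the peaks taken.

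No start of the 9 genes lay in a region, whereas 26.8% of protein-coding genes had a region over an annotated start. From 250 bases before to 50 bases after the start, Irx1 and Hhex had 35 CpG sites each, Irx2 25, Npy 24, Neurog3 19, Sox9 15 and Gata6 14, all above the median of 11 over protein-coding genes. Pou3f4 with 8 and Pax4 with 2 were below it. The RefSeq table of promoters (GRCm38.p6) held 5 of the 9 genes. Entries for Irx1, Sox9, Pax4 and Gata6 were missing. Of the 5, Irx2, Neurog3 and Npy had the same start as in the annotation used here, and the 250 bases before each start are shown, with every CpG in capitals, as examples of CpG-dense starts in which no library had a peak. They lie on the plus strand at chr13:72628570-72628819 (Irx2), chr10:62132840-62133089 (Neurog3) and chr6:49822460-49822709 (Npy).
Irx2: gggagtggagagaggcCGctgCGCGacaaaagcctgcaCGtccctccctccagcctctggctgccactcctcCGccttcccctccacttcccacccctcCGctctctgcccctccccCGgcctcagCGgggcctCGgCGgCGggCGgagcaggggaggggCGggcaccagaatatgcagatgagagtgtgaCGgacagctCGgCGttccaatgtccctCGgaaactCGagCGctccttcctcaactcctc
Neurog3: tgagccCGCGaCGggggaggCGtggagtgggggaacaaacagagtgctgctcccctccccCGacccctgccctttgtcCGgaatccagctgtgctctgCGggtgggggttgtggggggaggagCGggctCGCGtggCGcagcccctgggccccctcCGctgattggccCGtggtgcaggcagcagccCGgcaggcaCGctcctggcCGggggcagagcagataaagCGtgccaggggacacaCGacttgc
Npy: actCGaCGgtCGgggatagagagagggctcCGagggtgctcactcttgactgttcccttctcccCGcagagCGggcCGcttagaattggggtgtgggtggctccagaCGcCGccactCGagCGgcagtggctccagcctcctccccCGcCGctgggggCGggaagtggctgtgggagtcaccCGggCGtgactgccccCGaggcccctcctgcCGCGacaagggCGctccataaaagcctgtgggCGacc
The 3 promoters held 19, 18 and 21 CpG sites, against a median of 6 in 250 bases over the 32851 promoters of the table.

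The stretch around the start without a peak in any library was long for the 3 alpha cell genes. It measured 80.3 kb at Pou3f4, 66.7 kb at Irx2 and 40.3 kb at Irx1, which put them at percentiles 92.7, 90.2 and 80.6 of the protein-coding genes, whose median was 14.7 kb. Gata6 (25.9 kb) and Pax4 (24.3 kb) were above that median as well. Npy (14.2 kb), Neurog3 (11.4 kb), Sox9 (9.67 kb) and Hhex (5.71 kb) were below it. The 2 shortest stretches were the densest in CpG, with 4.75 sites per 100 bp at Hhex and 3.65 at Sox9, and the longest was the sparsest, with 0.462 at Pou3f4.

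**Figure D2:**
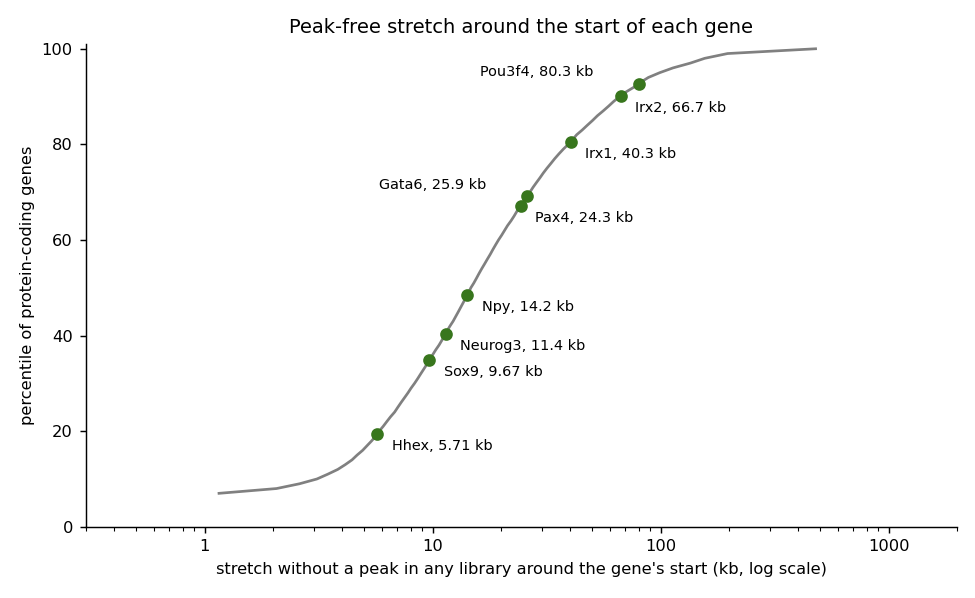
Length of the stretch without a peak in any library around the gene's start (kb, log scale) against its percentile among protein-coding genes. The grey line is the distribution over these genes and the points are the 9 genes, from Hhex at 5.71 kb to Pou3f4 at 80.3 kb.

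Irx1 and Irx2 encode Iroquois homeodomain factors that, among islet cells, are characteristic of alpha cells. Both lie on chromosome 13, Irx1 on the minus strand at chr13:71957921-71963723 and Irx2 on the plus strand at chr13:72628820-72634198. Their windows were rich in CpG, with 2.16 sites per 100 bp at Irx1 and 2.55 at Irx2 (percentiles 96.1 and 98.8 of protein-coding genes, median 1.13). Among the 855 genes at least as dense as Irx1, 89 (10.4%) likewise had no region, a share close to that of all genes. Seen from the start of Irx2, the nearest peak was 18.7 and 18.9 kb away in WT and 18.9 and 18.9 kb away in βRapKO, so the distance was nearly the same in all 4 libraries. At Irx1 the nearest peak was 21.4 and 19.1 kb away in WT and 42.1 and 21.1 kb away in βRapKO. There, βRapKO replicate 1 stood apart from the other 3 libraries. The peak-free stretches held 642 CpG sites at Irx1 and 896 at Irx2.

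Pou3f4 (also called Brn4), an X-linked POU domain factor of alpha cells, lies at chrX:110814280-110817207 on the plus strand. Its only region, chrX:110817460-110818552, began 253 bp after the end of the gene and was the region nearest to a gene among those outside a gene body. It had a peak of 35 tags (1.37 CPM, tags per 1000000 tags left after removal of duplicates) in WT replicate 1 and no peak in the other 3 libraries. For these the nearest peak to the gene's start was 50.9 kb away in WT replicate 2 and 48.6 and 51.2 kb away in βRapKO. The peak thus rested on 1 library, and it was a weak one, with a score at percentile 9.14 of that library's peaks. The score is MACS's own p-value as −log10, times 10.

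Neurog3 is the transcription factor that commits progenitors to the endocrine lineage. The gene (chr10:62133090-62134763, plus strand) had 1 region, chr10:62133878-62135256. It covered the last part of the coding sequence and the 3′ UTR in exon 2 of 2 and ran past the end of the gene. The region also lies inside Fam241b, a gene on the opposite strand, and MeDIP tags do not tell the 2 apart. Its coding stretch at chr10:62133878-62134104 is shown on the plus strand with the 8 CpG sites in capitals, since this is the part of the region nearest to the gene's start.
Neurog3: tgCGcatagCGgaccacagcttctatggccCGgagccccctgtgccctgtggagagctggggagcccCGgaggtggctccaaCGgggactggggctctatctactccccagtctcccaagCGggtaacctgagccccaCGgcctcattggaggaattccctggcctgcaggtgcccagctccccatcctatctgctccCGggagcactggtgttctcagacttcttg
The peaks of 3 libraries reached into this stretch and that of WT replicate 1 began after it, and the summits of all 4 lay beyond it, within 17 bp of each other. The region as a whole held 60 and 70 tags in WT and 65 and 73 tags in βRapKO, or 2.35 and 2.23 CPM in WT and 2.22 and 2.5 CPM in βRapKO. The groups overlapped. The mean was 2.29 ± 0.0784 CPM (SD, n = 2) in WT and 2.36 ± 0.196 CPM (SD, n = 2) in βRapKO, with a log2 fold-change of 0.05 ± 0.192 (SE, 95% interval −0.401 to 0.496, adjusted p = 0.977 by edgeR's quasi-likelihood test). The peak began 1.05 and 0.837 kb after the start in WT and 0.845 and 0.788 kb after it in βRapKO, so that each library had a peak within about 1 kb of the CpG-dense promoter shown above.

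Sox9, a high-mobility-group factor that keeps pancreatic progenitors undifferentiated and later marks duct cells, lies at chr11:112782224-112787760 on the plus strand. None of its 4 regions was called in every library. The region with the most tags, chr11:112785540-112787441, lay in the 3′ UTR in exon 3 of 3 and held 39 and 44 tags in WT, 34 tags in βRapKO replicate 1 and no peak in βRapKO replicate 2. It was less uniform than its count implies, because the summits were up to 1012 bp apart. When peaks were joined only if they shared 50% of the shorter one, the peaks of WT (chr11:112785540-112786755) and that of βRapKO replicate 1 (chr11:112786601-112787441) became separate regions. Upstream, inside the noncoding gene BC006965, chr11:112773113-112774337 held 30 tags in WT replicate 1 and 36 and 26 tags in βRapKO, and chr11:112774771-112775868 held 48 tags in WT replicate 2 and 30 tags in βRapKO replicate 2. Downstream, chr11:112789426-112790669 had a peak of 65 tags in βRapKO replicate 2 and none in the other libraries. At each of the 4 regions as joined by 1 bp, libraries of the same genotype thus differed in whether a peak was called. Joined at 50% overlap, the WT part of the 3′ UTR region had a peak in both WT libraries and in neither βRapKO library.

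Pax4, which favours the beta and delta cell fates over the alpha fate in endocrine precursors, lies on the minus strand at chr6:28442334-28449353. Its single region, chr6:28435128-28436942, was 5392 bp downstream of the gene and inside Fscn3, a gene of the fascin family. It was CpG-dense, with 42 sites at 2.31 per 100 bp (percentile 86.1 of all regions). The nearest peak to the start of Pax4 lay upstream, outside the window. It was 12.1 and 12.0 kb away in WT and 11.9 and 12.1 kb away in βRapKO. The 300 bases around the summit of the region inside Fscn3, chr6:28435440-28435739 on the plus strand, are shown with their 12 CpG sites in capitals. They are part of the only region in the Pax4 window and contain coding sequence of Fscn3.
Pax4: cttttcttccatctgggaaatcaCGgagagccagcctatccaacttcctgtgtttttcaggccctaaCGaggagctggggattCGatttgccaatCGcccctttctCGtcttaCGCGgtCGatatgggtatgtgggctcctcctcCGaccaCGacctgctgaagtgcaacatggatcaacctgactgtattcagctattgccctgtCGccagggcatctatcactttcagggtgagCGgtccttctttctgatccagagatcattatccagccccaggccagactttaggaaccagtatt
The region held 57 and 64 tags (2.23 and 2.04 CPM) in WT and 81 and 71 tags (2.77 and 2.43 CPM) in βRapKO. Each βRapKO library was above each WT library, as at 11.6% of all regions tested. The log2 fold-change was 0.29 ± 0.195 (SE, 95% interval −0.166 to 0.744), which did not pass the test (adjusted p = 0.866, edgeR's quasi-likelihood test). The peaks were 1608 and 1402 bp wide in WT and 1665 and 1815 bp wide in βRapKO. Per kb of peak the values overlapped, at 1.39 and 1.46 CPM in WT and 1.66 and 1.34 CPM in βRapKO, and the log2 fold-change was 0.08.

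Hhex, a homeodomain factor needed by delta cells and in early endoderm, lies at chr19:37434810-37440731 on the plus strand. Its only region called in every library, chr19:37444133-37445983, was 3402 bp downstream. It differed in sequence from the other tested regions: it had 14 CpG sites at 0.756 per 100 bp (percentile 5.29 of all regions), and annotated repeats made up 67% of it, against 6.02% to 26.2% of the other 5. The 300 bases around its summit, chr19:37444498-37444797 on the plus strand, are shown with their only CpG in capitals, because this stretch is a simple repeat with few CpG sites. The summits of 3 libraries lay in it and that of WT replicate 2 did not, and summits were up to 598 bp apart.
Hhex: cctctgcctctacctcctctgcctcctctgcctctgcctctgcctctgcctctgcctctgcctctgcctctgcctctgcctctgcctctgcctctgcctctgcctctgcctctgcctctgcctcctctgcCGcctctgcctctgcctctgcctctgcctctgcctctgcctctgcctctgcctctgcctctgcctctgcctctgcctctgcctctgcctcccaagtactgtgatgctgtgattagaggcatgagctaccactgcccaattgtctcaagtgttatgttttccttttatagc
The 6-base unit CTCTGC (searched on both strands) occurred 33 times in this window. It is the repeat unit of the window itself, so the shares below, which include this window, describe it and test nothing. Among the windows of the same length at the summits of all 75052 tested regions, 35.7% held at least 1 copy, 19 (0.0253%) held at least 33 and 654 (0.871%) had at most 1 CpG site, where the median was 9. How the aligner placed reads in repeats is not given in the sources used here. The region held 83 and 87 tags (3.24 and 2.78 CPM) in WT and 96 and 73 tags (3.29 and 2.5 CPM) in βRapKO. The βRapKO libraries lay on either side of WT, and the log2 fold-change was −0.05 ± 0.208 (SE, 95% interval −0.538 to 0.432, adjusted p = 0.977 by edgeR's quasi-likelihood test). Per kb of peak it had 1.79 and 1.58 CPM in WT and 1.81 and 1.52 CPM in βRapKO. The region of Neurog3, with 2.25 CpG sites per 100 bp, had 2.17 and 1.75 CPM per kb in WT and 1.68 and 1.81 CPM per kb in βRapKO, so tags per kb of peak were similar at the CpG-poor region of Hhex.

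The other 3 regions of Hhex were each seen in 1 library. The region 4175 bp upstream (chr19:37429789-37430635) had 38 tags and the region in intron 3 (chr19:37438917-37439540) had 28 tags, both in WT replicate 2. The region 1600 bp upstream (chr19:37431956-37433210) had 52 tags in βRapKO replicate 1. It overlapped Gm38345, a transcript of unknown coding status. The nearest peak to the start of Hhex therefore changed from library to library, at 9.37 and 4.11 kb in WT and 1.6 and 9.39 kb in βRapKO.

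Npy encodes neuropeptide Y, a secreted peptide and not a transcription factor, which is found in immature beta cells and lowers insulin release. The gene lies at chr6:49822710-49829507 on the plus strand. Its upstream region, chr6:49817260-49818451, was 4259 bp before the start and was the only one of the 19 called in both WT libraries and in no βRapKO library. The 300 bases around the summit, chr6:49817664-49817963 on the plus strand, are shown with their 5 CpG sites in capitals because the calls separate the genotypes here.
Npy: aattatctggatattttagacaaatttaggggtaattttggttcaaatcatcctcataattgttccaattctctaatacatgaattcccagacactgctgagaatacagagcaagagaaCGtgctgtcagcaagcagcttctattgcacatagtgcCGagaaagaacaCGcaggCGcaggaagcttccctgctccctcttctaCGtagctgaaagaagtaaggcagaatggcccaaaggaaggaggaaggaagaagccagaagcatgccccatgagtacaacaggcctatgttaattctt
The peaks held 38 tags (1.49 CPM) and 34 tags (1.09 CPM) in WT replicates 1 and 2. They were weak calls, with scores of 62.2 and 54.6 where the threshold is 50, at percentiles 18.7 and 7.05 of their libraries. No count exists for βRapKO, so the difference could not be tested and no fold-change is given. With the same number of top-ranked peaks taken from each library, the region no longer had this pattern. The region downstream, chr6:49832624-49834064, had 44 and 30 tags in WT, 32 tags in βRapKO replicate 2 and no peak in βRapKO replicate 1. The nearest peak to the start of Npy was 4.26 and 4.59 kb away in WT and 39.4 and 10.3 kb away in βRapKO, where the weak upstream peak was not called.

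Gata6, a zinc finger factor needed for the growth of the pancreas and shared by progenitor and exocrine cells, lies at chr18:11052064-11085635 on the plus strand and had 6 regions, of which 3 were called in every library. The region upstream, chr18:11047382-11051055, lay inside the noncoding gene 1010001N08Rik and held the most tags of the 19 when summed over libraries (555). Its near edge was 1.01 and 2.14 kb before the gene in WT and 3.09 and 1.99 kb before it in βRapKO. It had 132 CpG sites at 3.59 per 100 bp, percentile 98.6 of all regions. Its peaks held 163 and 165 tags (6.37 and 5.27 CPM) in WT and 89 and 138 tags (3.05 and 4.73 CPM) in βRapKO. Each βRapKO library was below each WT library, as at 25.3% of all regions tested, but the βRapKO libraries were farther from each other than the higher of them was from the lower WT library. The mean was 5.82 ± 0.781 CPM (SD, n = 2) in WT and 3.89 ± 1.19 CPM (SD, n = 2) in βRapKO, and the log2 fold-change of −0.58 ± 0.23 (SE, 95% interval −1.12 to −0.0415) had an unadjusted p under 0.05 but an adjusted p = 0.858 in edgeR's quasi-likelihood test. Without βRapKO replicate 1 the log2 fold-change was −0.30, and without βRapKO replicate 2 it was −0.93.

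The region in the downstream flank of Gata6, chr18:11087769-11088853, was 2134 bp past the end of the gene. It held 53 and 57 tags (2.07 and 1.82 CPM) in WT and 37 and 36 tags (1.27 and 1.23 CPM) in βRapKO. The libraries of each genotype were close together. Each βRapKO library was below each WT library, as at 25.3% of all regions tested. The log2 fold-change was −0.63 ± 0.188 (SE, 95% interval −1.07 to −0.193). This region had the lowest p of the 6, also under 0.05 before adjustment, and an adjusted p = 0.78 by edgeR's quasi-likelihood test over all regions.

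At both of these Gata6 regions the peaks were narrower on average in βRapKO, and per kb of peak little difference was left. Width and tags come from the same peak call, so values per kb are not an independent correction. Upstream, the peaks were 3603 and 2481 bp wide in WT and 1543 and 2691 bp wide in βRapKO, and tags per kb of peak were 1.77 and 2.12 CPM in WT and 1.97 and 1.76 CPM in βRapKO. Downstream, the peaks were 927 and 816 bp wide in WT and 634 and 530 bp wide in βRapKO, with 2.23 and 2.23 CPM per kb in WT and 2.0 and 2.33 CPM per kb in βRapKO. Per kb of peak the groups overlapped at both regions, and the log2 fold-changes were −0.07 and −0.05 (adjusted p = 0.876 and 0.929 in the edgeR fit). Peak widths over the whole genome went the other way, with medians of 1059 and 938 bp in WT and 1102 and 1150 bp in βRapKO.

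The region over exon 7 of 7 of Gata6, chr18:11083394-11085636, covered coding sequence and the 3′ UTR and showed the reverse relation. It held 65 and 47 tags (2.54 and 1.5 CPM) in WT and 77 and 49 tags (2.64 and 1.68 CPM) in βRapKO, with a log2 fold-change of 0.12 ± 0.318 (SE, adjusted p = 0.97 in edgeR). The spread within each genotype was far larger than the difference between them. Per kb of peak, WT had 1.53 and 1.90 CPM and βRapKO 1.17 and 1.34 CPM, and the log2 fold-change turned to −0.44 (adjusted p = 0.399 in edgeR). The 3 remaining regions of Gata6 had between 30 and 43 tags where they were called. Both in intron 6, chr18:11076989-11077814 had a peak in every library except βRapKO replicate 2, and chr18:11079208-11080284 had one in WT replicate 2 and βRapKO replicate 1. The region chr18:11091632-11092514, 5997 bp downstream, was seen in WT replicate 2 alone.

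None of the 6 tested regions passed the test. Tags were lower in βRapKO at 3 regions and higher at 3, while 60.8% of all 75052 regions tested were lower. The median log2 fold-change was −0.003 over the 6 regions and −0.059 over all. Of the 6, 2 regions had every βRapKO library below every WT library and 1 had every βRapKO library above. These patterns were found at 25.3% and 11.6% of all regions tested. An unadjusted p under 0.05 was found at 2 of the 6, both at Gata6, and at 5.81% of all regions. This count depended on the fit: it was 0 of the 6 with tags in peaks as library size, with DESeq2 and per kb of peak. With edgeR, 0 of the 6 passed an FDR of 0.05 with a fold-change above 1.5, and the adjusted p ran from 0.78 to 0.977. The same call was made at 0% of all regions (0 of 75052, smallest adjusted p 0.173), although 4363 had an unadjusted p under 0.05. Over all regions limma called 0 as well and DESeq2 called 2, neither of them at these genes. The SE of the log2 fold-change was between 0.188 and 0.318 at the 6 regions. Per kb of peak 5 of the 6 regions were lower in βRapKO, beside 79.8% of all regions, and only Pax4 was higher. The median was −0.061, against −0.166 over all regions. The scores of the 6 regions lay between percentiles 39 and 86.3 of all peaks of their library, and those of the 13 regions called in fewer libraries between 0.0561 and 52. Since 3 of the 6 regions belong to Gata6, they are not independent samples of the 9 genes.

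**Figure D3:**
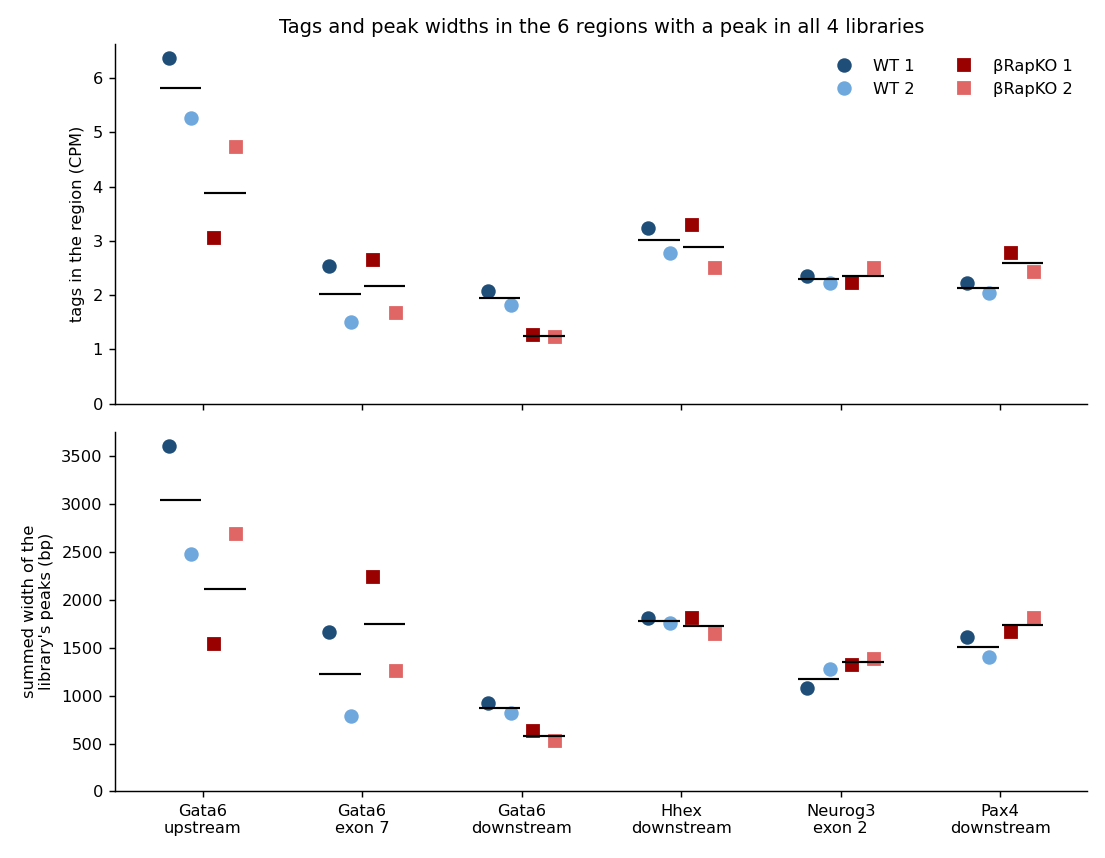
Tags in CPM (upper panel) and summed width of the library's peaks in bp (lower panel) at the 6 regions called in every library. Each point is 1 library and each black line the mean of the 2 libraries of a genotype. The genotypes are apart in CPM at the upstream and downstream regions of Gata6 and at Pax4. Widths mostly follow the tags at Gata6, with 3603 bp in the WT library of 6.37 CPM upstream and 1543 bp in the βRapKO library of 3.05 CPM. The exception is upstream, where βRapKO replicate 2 (4.73 CPM) has 2691 bp and WT replicate 2 (5.27 CPM) has 2481 bp.

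**Figure D4:**
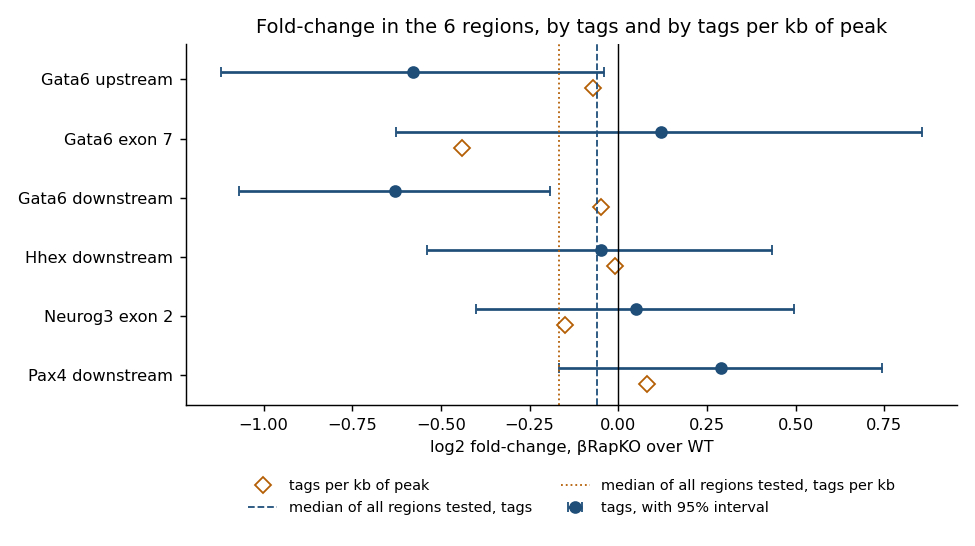
Log2 fold-change of βRapKO over WT at the same 6 regions by tags (circles, with the 95% interval of the edgeR fit) and by tags per kb of peak (diamonds, without interval). Dashed and dotted lines mark the medians over all regions tested, −0.059 and −0.166. The Gata6 upstream and downstream regions move from −0.58 and −0.63 by tags to −0.07 and −0.05 per kb of peak, and the Gata6 exon moves from 0.12 to −0.44.

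Another 18 genes of islet cell specification were looked up in the same way: the endocrine factors Insm1, Rfx6, Myt1, Fev, Glis3 and Sox4, the Notch genes Dll1 and Hes1, the early pancreas genes Onecut1, Foxa1, Foxa2, Ptf1a, Gata4 and Cpa1, and the Iroquois genes Irx3 to Irx6. They had 95 regions, 46 of them at the long gene Glis3, and 2 of the genes (Foxa1 and Ptf1a) had none. Of the 33 regions called in every library, 20 were lower and 13 higher in βRapKO (60.6% lower, beside 60.8% of all regions), with a median log2 fold-change of −0.08, and 0 passed the FDR in either direction by edgeR. An unadjusted p under 0.05 was found at 1 region, chr17:15382199-15383358 at Dll1, a Notch ligand, with 2.74 and 2.87 CPM in WT and 2.02 and 1.82 CPM in βRapKO (log2 fold-change −0.55, adjusted p = 0.849 in edgeR). Peaks in WT alone were found at 7 of the 95 regions and in βRapKO alone at 2, beside 4.16% and 1.58% of all regions. One of the 7 was the only region of Irx4, a neighbour of Irx1 and Irx2 on chromosome 13, with 1.09 and 1.21 CPM in WT. Irx3 and Irx5 also had 1 region each and Irx6 had 2. Long stretches without a peak around the start were found here too, with 58.9 kb at Irx5, 58.1 kb at Ptf1a, 54.3 kb at Foxa1, 54.2 kb at Rfx6 and 45 kb at Myt1, all longer than that of Irx1. A start covered by a region was found for 3 of the 18 genes (Cpa1, Dll1 and Onecut1) and for 0 of the 9, beside 26.8% of protein-coding genes.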

How the data were processed

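Islet DNA of 2 WT and 2 βRapKO libraries was analysed, grouped by the genotype in the sample labels. The authors aligned reads to mm10 with Bowtie2 version 2.2.5 and called peaks in each library with MACS, version 1.4.2 per the file headers, with no control, a p cutoff of 1e-05 and 1 tag kept per position. Their processing notes also list mm9, but all regions fitted the mm10 chromosomes, and CpG density was 1.6 per 100 bp in regions and 0.849 when these were shifted by 10000 bp. For each peak the authors deposited a tag count that was not normalized. They also deposited for each peak a score, the −log10(p) multiplied by 10, and a fold enrichment over the local background, which is a ratio. Columns matched to no sample numbered 0.

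Peaks on the autosomes, X and Y that overlapped by at least 1 bp were joined across libraries, and the tags of each library's own peaks were added. Libraries were scaled by their deduplicated tags alone. Only regions called in every library entered the test, by edgeR 4.0.16 (R 4.3.3) with the quasi-likelihood method and Benjamini-Hochberg adjustment over 75052 regions. The fit was also run on counts simulated with a common dispersion, as a check on the size of the fold-change. Counting tags inside each library's own peaks was not part of that simulation. The SE was taken from the F statistic. Two-sided p-values are given throughout. Genes came from GENCODE M21, CpG sites from GRCm38 and promoters from RefSeq. The 9 genes, the list of 18 further genes and the tests were chosen with earlier results of these data known. Other genes of that list are not reported here. Regions were described singly if they had the most tags of their gene, covered a start, were called in 1 genotype only or had an unadjusted p under 0.05. The other regions of these genes, outside that rule, were listed with their tags so that every region is accounted for. Alternatives were another library size, TMM, DESeq2 1.42.0, limma 3.58.1 on log2(CPM + 0.5), tags per kb of peak, the replicate block, at least 50 tags in every library, stricter peaks (score of at least 100), joining at 50% overlap, an equal number of peaks per library, 2 smaller gene windows and the removal of each library.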

Additional observations from a re-analysis of the deposited data

How the results depend on the processing

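The count of regions past the FDR and fold-change stayed at 0 in both directions under every alternative except DESeq2, which called 2 regions higher, neither at the 9 genes. Of 49 alternative values for the region with the most tags at Gata6, Hhex, Neurog3 and Pax4, 42 kept their sign, 7 changed it and 0 crossed the threshold. The sign changed only where the log2 fold-change was near 0: at Hhex it was 0.11 with tags in peaks as library size, 0.01 with TMM and 0.01 with DESeq2, and at Neurog3 −0.15 per kb of peak. With 1 library left out it ran from −0.26 to 0.13 at Hhex, from −0.04 to 0.13 at Neurog3, from −0.93 to −0.30 at Gata6 and from 0.19 to 0.38 at Pax4. The downstream region of Gata6, not among these, ran from −0.73 to −0.05 over 11 alternatives. The median over the tested regions was 0.16 with tags in peaks as library size and −0.578 with stricter peaks, which left 1 region, and from −0.246 (without βRapKO replicate 1) to 0.07 with 1 library left out, when 6 to 8 regions could be tested and 2 to 5 of them were below WT. Over all regions, 54.0% to 63.7% were below WT with 1 library left out. Per kb of peak 5 of 6 were below WT, beside 79.8% of all regions, and with stricter peaks 1 of 1, beside 63.9%. The median over all regions moved from −0.059 to 0.104 with tags in peaks as library size and to 0.004 with TMM, so directions here are relative to the scaling. With the replicate block the median was −0.008, 3 of 6 regions were below WT and the calls did not change. Libraries with the same number deviated together with a correlation of 0.0474, so the numbers were not taken to pair them.

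Regions were fewer in smaller windows: with 2 kb either side there were 10, with 3 called in every library and 4 genes without any, and with the gene body alone there were 6, 2 and 5, with 0 regions in WT alone under both. Stricter peaks left 6 regions, 1 of them in all 4 libraries, and 5 genes without one. Regions in WT alone numbered 2 when joined at 50% overlap, upstream of Npy and in the 3′ UTR of Sox9. With equal numbers of peaks they numbered 0. Irx1 and Irx2 had no region under any of these settings. With 1 library left out there were 16 to 18 regions, 6 to 8 in all remaining libraries, and 2 to 3 genes without a region. With 2 libraries per genotype and 23 to 25 tags in the weakest peak, small or sparse differences could not be seen.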
